A study of Mus musculus with 162 samples.

Results

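The genes described here are 8 genes of deep layer projection neurons, Fezf2, Bcl11b, Tle4, Crym, Ldb2, Sox5, Foxp2 and Zfpm2, taken by name from the 22879 genes of the count table. They were followed in single mouse cells, 162 in number, of which 14 had failed the submitters' quality control and were left out. The cells were neural cells of embryos at E17.5 to E18.5, and the RNA of each was cytosol drawn into a patch-clamp pipette. All cells came from 1 of 3 Cre driver lines: 114 passed cells from the Htr3a Cre line, 17 from the Lhx6 Cre line and 17 from the Nex Cre line, Nex being an older name of Neurod6. By the submitters' type label the passed cells were 33 Glutamatergic 1 (23 of the Htr3a line, 10 of the Nex line), 13 Glutamatergic 2 (12 and 1), 18 MGE-derived 1 (11 of the Htr3a and 7 of the Lhx6 line), 24 MGE-derived 2 (17 and 7), 11 CGE-derived (Htr3a line), 4 GABAergic (3 of the Htr3a line and 1 of the Lhx6 line), 12 Cajal Retzius (Htr3a line), 11 VZ-derived (8 of the Htr3a, 2 of the Nex and 1 of the Lhx6 line) and 22 Undefined (17 of the Htr3a, 4 of the Nex and 1 of the Lhx6 line). MGE, CGE and VZ are printed as the labels have them, and the sources used here do not give the brain region, the reporter by which cells were picked, or whether the type labels rest on the expression of the same cells. As the labels tell nothing of animals, litters or cultures, every group stood for 1 sample, no test between groups was possible, and driver line, animals and batch cannot be told apart.

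Projection neurons of the deep cortical layers are the glutamatergic neurons of layers 5 and 6, which send their axons to the spinal cord, brainstem and thalamus, while callosal neurons connect the hemispheres. A small set of transcriptional regulators separates these fates: Fezf2 and its downstream factor Bcl11b (also called Ctip2) direct subcerebral identity. Late in gestation deep layer neurons have been born and have settled, and many upper layer neurons are still arriving.

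In the mouse genome build GRCm38 with the GENCODE M21 annotation the members lie on 7 chromosomes. Fezf2 (ENSMUSG00000021743), a zinc finger factor of subcerebral neurons, spans chr14:12342094-12348189 on the minus strand, and Bcl11b (ENSMUSG00000048251) spans chr12:107910403-108003602, also on the minus strand. Tle4 (ENSMUSG00000024642, chr19:14448150-14598051, minus strand) encodes a Groucho family co-repressor that marks corticothalamic neurons. Foxp2 (ENSMUSG00000029563, chr6:14901349-15441977, plus strand) encodes a forkhead factor of layer 6, and Zfpm2 (ENSMUSG00000022306, chr15:40655035-41104592, plus strand) encodes Fog2, a zinc finger partner of GATA factors. Sox5 (ENSMUSG00000041540, chr6:143828425-144781977, minus strand), a SoxD factor, controls the sequential generation of subplate, corticothalamic and subcerebral neurons. Crym (ENSMUSG00000030905, chr7:120186380-120202111, minus strand) encodes mu-crystallin, a binding protein of thyroid hormone, and Ldb2 (ENSMUSG00000039706, chr5:44472132-44799680, minus strand) encodes a cofactor of LIM domain proteins. The exons of Sox5 share 1330 bases with an antisense gene on the other strand, Sox5os1, which the count table did not hold, and whether counting used the strand is not given.

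RefSeq promoters (build GRCm38.p6) were found for 4 of the 8 members and are shown because the genes were detected together in many of the same cells. The bases printed lie before the RefSeq start and outside annotated exons, read on the minus strand. For Fezf2 they are chr14:12345960-12346115, for Bcl11b chr12:108003603-108003664, for Tle4 chr19:14598184-14598433 and for Sox5 chr6:143947107-143947356, and those of Fezf2 and Sox5 lie within the longer gene model of GENCODE. Capitals mark matches to a CCAAT box (CCAAT, or ATTGG on the other strand) in Tle4 and to a SOX core (ATTGT, or ACAAT) in Sox5.
Fezf2: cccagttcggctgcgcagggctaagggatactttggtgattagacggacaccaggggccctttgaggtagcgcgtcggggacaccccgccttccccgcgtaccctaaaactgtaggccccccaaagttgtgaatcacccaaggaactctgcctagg
Bcl11b: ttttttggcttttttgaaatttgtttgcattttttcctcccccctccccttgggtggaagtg
Tle4: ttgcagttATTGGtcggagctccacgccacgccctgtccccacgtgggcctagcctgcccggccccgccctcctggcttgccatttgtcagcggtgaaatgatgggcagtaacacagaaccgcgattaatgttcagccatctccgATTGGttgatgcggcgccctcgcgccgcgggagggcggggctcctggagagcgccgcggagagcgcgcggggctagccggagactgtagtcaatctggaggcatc
Sox5: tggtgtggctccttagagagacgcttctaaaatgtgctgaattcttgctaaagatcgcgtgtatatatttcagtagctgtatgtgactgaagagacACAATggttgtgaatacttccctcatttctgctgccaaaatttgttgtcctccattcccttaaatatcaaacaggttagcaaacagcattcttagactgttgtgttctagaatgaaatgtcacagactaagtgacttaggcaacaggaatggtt
The 4 stretches differ in composition: that of Tle4 held 24 CpG and 65.2% GC, that of Fezf2 9 CpG in 156 bases, that of Sox5 3 CpG and 39.6% GC, and that of Bcl11b none in 62 bases. Over 32851 promoter windows of 250 bases the median was 6 CpG and 52.4% GC. The CCAAT box occurred in 33.8% of those windows and the SOX core in 27.7%. Neither the E-box CAGATG (or CATCTG, in 14.4% of windows) nor TATAAA (or TTTATA, in 12.4%) was found in these stretches. A match is a description of the letters only.

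Depth was high for single cells: the passed cells held 1710224 to 24836041 counts and 2066 to 14810 genes with a count (median 5363). Levels are given as CPM, a gene's counts scaled to a cell's total, and for a group as the CPM of its summed counts with exact Poisson 95% intervals. Shares of cells carry exact Clopper-Pearson 95% intervals, except that for a share of 0 the upper limit is 3 cells of the number looked at. The Poisson intervals treat reads as independent molecules, which they are not, so they are too narrow, and they leave out the spread over cells. The intervals of shares treat cells as independent, though cells of 1 animal may be alike. Neither kind covers the spread over animals. A cell counts as holding a gene when it had at least 1 count. To compare groups, log2(CPM + 1) was averaged over the cells of each and the averages subtracted, a scale that understates changes of low genes, and a gene is called higher or lower where that difference reached 1. A call is a fold size and not a test. In 2 cells labelled Glutamatergic 1 Gad1 went against the label, as cells 6 and 19 held it at 366 and 36.2 CPM, though no glutamatergic cell reached 1 CPM of Gad2. Summed over the list of GABAergic neuron markers, glutamatergic cells had a median of 0.0808 and a highest level of 1384 CPM. Other markers of that list thus also went against the label.

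The 2 glutamatergic labels together (46 cells) held each member in 8 to 32 cells. Fezf2 was held by 26 of 46 cells (56.5%, interval 41.1% to 71.1%), with a lowest level of 0, a median of 37.1 and a highest of 1235 CPM. Its summed level was 156 CPM (155 to 157). Bcl11b was held by 31 cells at a summed 106 CPM, with a median cell at 30.1 and the highest at 706 CPM.

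Tle4 was held by 31 of the 46 glutamatergic cells, with a median of 74.2 and a highest level of 1896 CPM, and its summed level was 152 CPM. Sox5 was the most frequent member, in 32 cells (69.6%, interval 54.2% to 82.3%), with a median of 18.0, a highest level of 1056 and a summed level of 140 CPM. So Fezf2, Bcl11b, Tle4 and Sox5 were each held by most glutamatergic cells, at levels that ran from 0 to more than 700 CPM. Zfpm2 was held by 25 cells (summed level 77.7 CPM) and Ldb2 by 24 cells (101 CPM).

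Crym was present in fewer cells than most members but at the highest summed level. It was held by 20 of 46 cells (43.5%, interval 28.9% to 58.9%), with a median of 0, a highest cell at 1353 and a summed level of 303 CPM (302 to 305). Foxp2 was the rarest member, in 8 of 46 cells (17.4%, interval 7.82% to 31.4%), and 80.5% of its counts came from 1 Nex line cell. Without that cell its summed level was 2.22 in place of 11.3 CPM. Per kilobase of exon, which allows genes to be set side by side, the summed level was 89.5 CPM for Crym, 51.2 for Fezf2, 30.3 for Ldb2, 26.6 for Tle4, 13.1 for Bcl11b, 9.71 for Sox5, 8.15 for Zfpm2 and 0.69 for Foxp2.

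The order of type labels by mean log2 level differed from gene to gene. The Glutamatergic 2 cells came first for Tle4 (mean 4.93, SD 3.27), Crym (6.52, SD 4.58) and Zfpm2 (4.62, SD 3.48). The VZ-derived cells came first for Fezf2 (5.08, SD 4.12), Ldb2 (4.63, SD 4.54), Sox5 (5.75, SD 3.75) and Foxp2 (1.84, SD 3.29). Bcl11b was led by the 4 cells labelled GABAergic (6.37, SD 4.32). In none of the 64 pairs of neighbours in these orders did the means differ by more than the larger SD over cells. Neighbours in a sorted order are close by construction, so this says nothing of labels farther apart. For Crym, as an example, the mean was 6.52 (SD 4.58) in Glutamatergic 2 cells and 0 in CGE-derived cells.

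**Figure D1:**
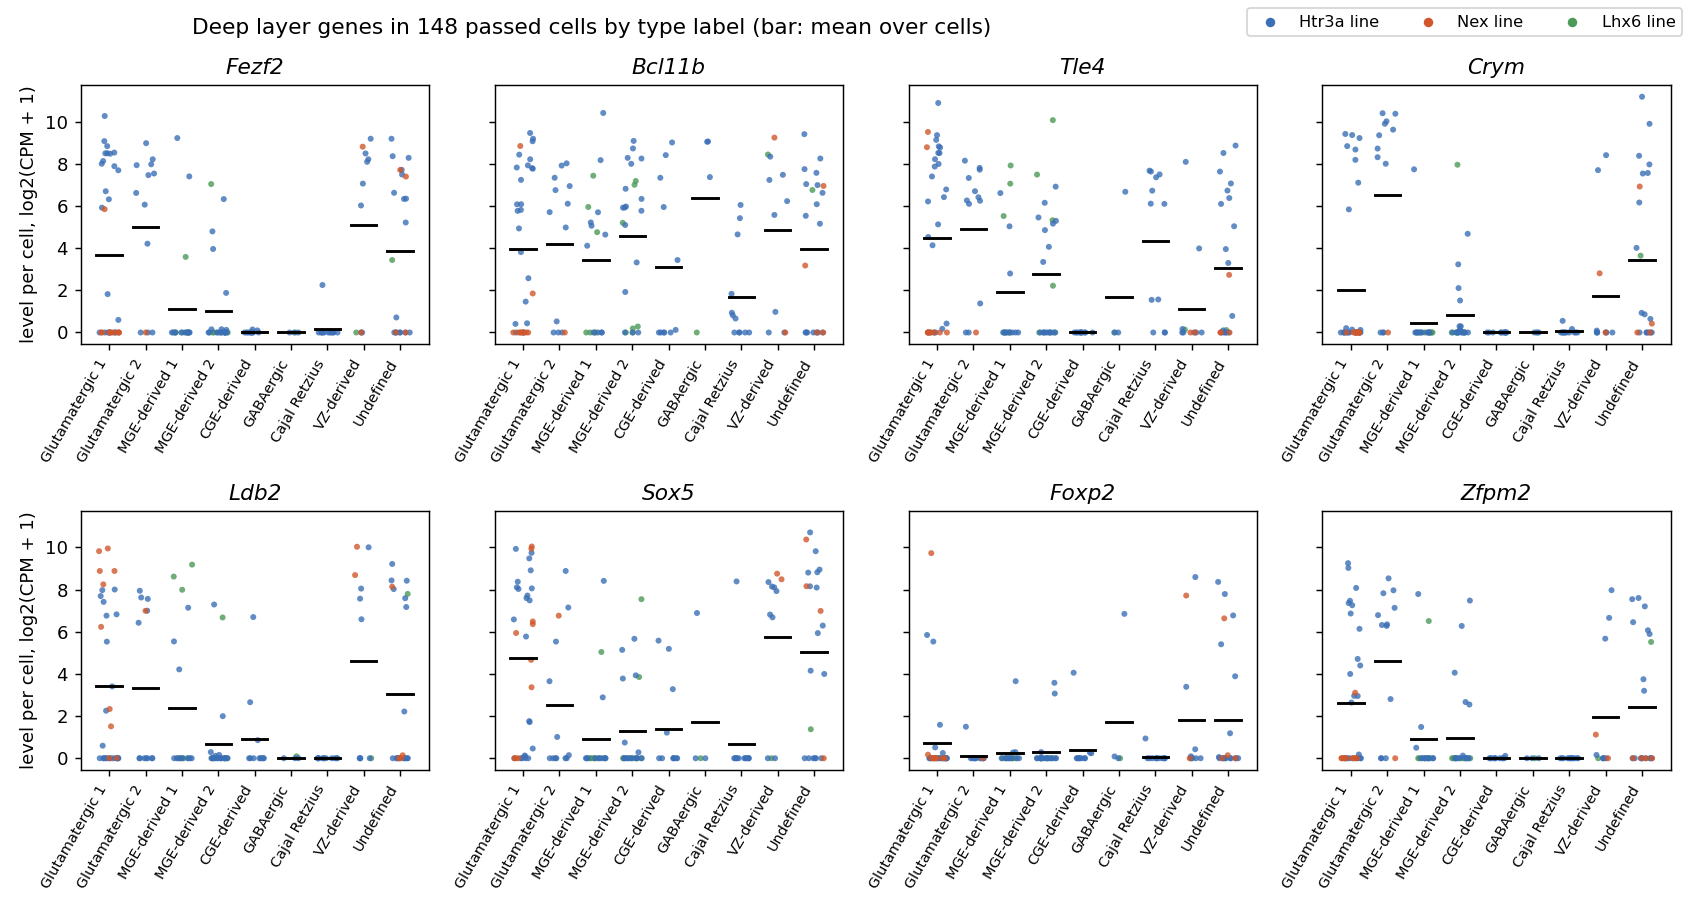
Level of each gene, as log2(CPM + 1), in each passed cell (points, coloured by driver line) by type label, with the mean over cells as a bar. Points split between 0 and high values in most labels, Bcl11b is spread over all 9 labels, and Crym reaches its highest mean, 6.52, in Glutamatergic 2 cells.

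Against cells of GABAergic classes (57 cells, those labelled GABAergic, CGE-derived or MGE-derived), 6 of the 8 members were called higher in glutamatergic cells and none lower. Among 13139 genes tested 9.74% were called higher and 6.07% lower. The median difference over the members was 2.60 against 0.02 over all genes, and all 8 passed the filter, which kept genes held by 10% or more of the cells in 1 of the groups. Fezf2 had the largest difference of the 8. Of cells of GABAergic classes 13 of 57 held it (22.8%, interval 12.7% to 35.8%), with a median of 0 and a highest level of 597 CPM, and its difference was 3.26 (means 4.05, SD 3.94, and 0.79, SD 2.11). Its summed level was 156 against 19.4 CPM, and 1 MGE-derived 1 cell gave 59.5% of the counts in GABAergic classes, without which their level was 8.02 CPM.

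Crym was the member most nearly restricted by summed level, at 303 CPM in glutamatergic cells and 8.14 CPM in GABAergic classes, where 10 of 57 cells held it. Its difference was 2.81. The 11 CGE-derived cells and the 4 cells labelled GABAergic held no Crym count, which by that rule allows a share of up to 27.3% and 75.0% of such cells.

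Sox5 differed by 2.91 (140 against 16.7 CPM, 16 of 57 cells of GABAergic classes), Tle4 by 2.71 (152 against 31.6 CPM, 19 of 57), Zfpm2 by 2.49 (77.7 against 9.37 CPM, 11 of 57) and Ldb2 by 2.17 (101 against 23.3 CPM, 16 of 57). For each of these the groups overlapped, since both held cells at 0 and cells above 100 CPM. For scale, markers of the other class were held by some cells as well. Gad1, which makes GABA, was held by 7 of 46 glutamatergic cells. Of glutamatergic markers, cells of GABAergic classes held Slc17a7, the vesicular glutamate transporter, in 6 of 57, Neurod2 in 14, Tbr1 in 15 and Neurod6 in 17. Fezf2, Crym, Ldb2, Sox5, Foxp2 and Zfpm2, in 10 to 16 of those cells, lay within that range. Whether these counts are expression in GABAergic classes or RNA of other cells was not tested. The median number of genes per cell was 5620.5 and 4894.

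The name of the gene set did not hold for all members in these cells. Bcl11b was held by 38 of 57 cells of GABAergic classes (66.7%, interval 52.9% to 78.6%) and 31 of 46 glutamatergic cells (67.4%, interval 52.0% to 80.5%), at 135 and 106 CPM, a difference of -0.02. Bcl11b is also known from striatal neurons and interneurons. Foxp2 was held by 11 of 57 and 8 of 46 cells, and its difference was 0.15.

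Within the Htr3a line alone (35 and 42 cells) 6 members were again called higher, where 13.4% of 13516 genes were called higher and 6.95% lower. Fezf2 stood at 4.34, Tle4 at 4.04, Crym at 3.86, Zfpm2 at 3.31, Sox5 at 2.63 and Ldb2 at 1.78. Of the other deep layer and subplate genes 11 of 23 tested were higher within this line and 3 lower (median 0.89). Over all lines, of 22 such genes tested, 10 were called higher and 1 lower (median 0.81), led by Wnt7b (4.14), Tbr1 (3.87), Nfe2l3 (3.37) and Hs3st4 (3.15), while Tshz3 was lower by 2.46 on the log2 scale (-2.46).

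Detection of several members in 1 cell followed the same split. Glutamatergic cells held a median of 4 of the 8 members and 32 of 46 held 4 or more. Cells of GABAergic classes held a median of 2, and 11 of 57 held 4 or more. These 11 included MGE-derived 2 cells 16 and 17, which held all 8 and had 14810 and 13214 genes, and MGE-derived 1 cell 14, which held 6 and had 10971 genes. MGE-derived 2 cell 20 held 7 members together with Gad1 at 372, Neurod6 at 541 and Slc17a7 at 21.9 CPM. Whether RNA of a neighbouring cell had entered such samples was not tested. Without the 5 cells of GABAergic classes that had over 10000 genes, 6 members were still called higher, where 14.7% of genes were higher and 4.98% lower.

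**Figure D2:**
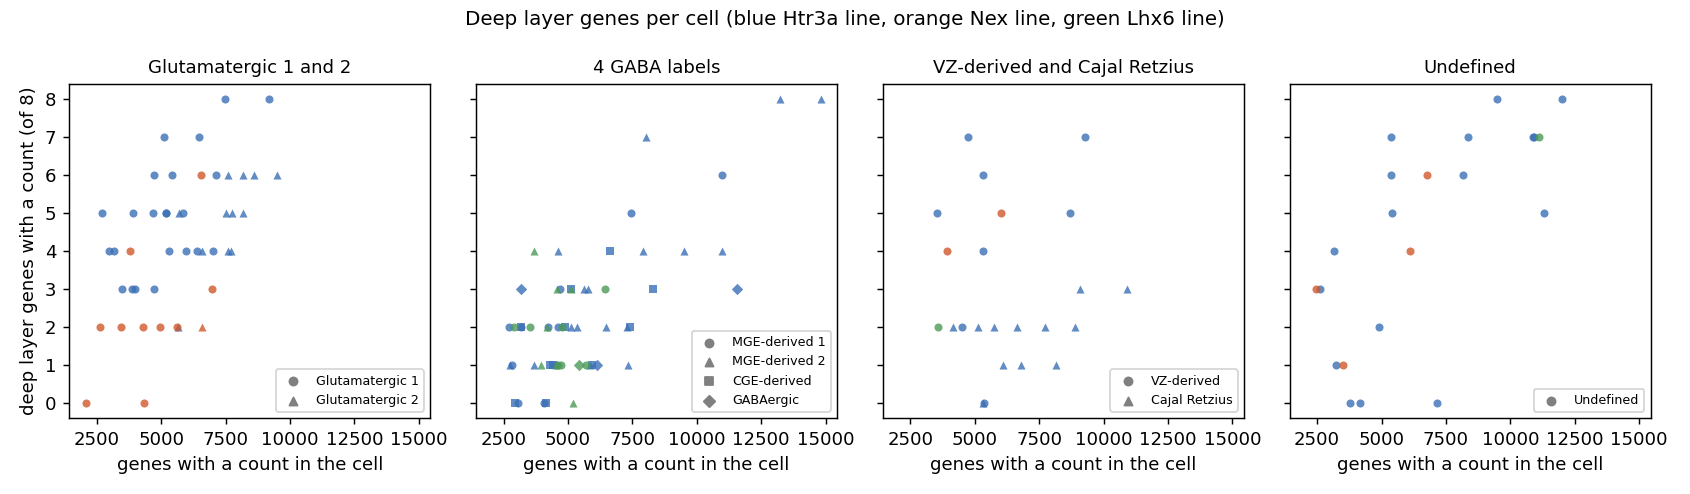
Number of the 8 genes with a count in each cell (vertical axis) against the number of genes with a count in that cell (horizontal axis), in panels by type label and coloured by driver line. Glutamatergic cells sit around a median of 4 and cells of GABAergic classes around 2, and the cells of GABAergic classes with 8 members lie at the far right, near and above 13214 genes.

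Among interneuron labels Bcl11b was common, in 29 of 42 MGE-derived cells (123 CPM) and 6 of 11 CGE-derived cells (83.8 CPM), and the other members were held by fewer cells. MGE-derived against CGE-derived cells (42 and 11) had 2 members called higher, Tle4 (2.41) and Fezf2 (1.04), and none lower, where 17.4% of 12753 genes were called higher and 10.8% lower. A share of 2 in 8 is near that background. Tle4 was held by 18 of 42 MGE-derived cells, with a summed level of 43.2 CPM, and by none of the 11 CGE-derived cells. Fezf2 was held by 11 of 42 and 2 of 11 cells, and the 2 CGE-derived cells held 1 count each. The count of members called higher ranged from 1 to 6 over the alternatives tried, so it hung on the processing. Within the Htr3a line it was 4, with none lower, where 19.3% of genes were called higher and 8.58% lower and 7 of 8 microglia markers were called higher too. Without cells of over 10000 genes it was 1, where 14.4% were higher and 14.8% lower. The part of RNA from other cells in these values was not tested.

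Glutamatergic 1 and Glutamatergic 2 cells differed in 4 of the 8 members. Crym (-4.48), Zfpm2 (-1.998) and Fezf2 (-1.33) were called lower in Glutamatergic 1 cells and Sox5 (2.20) higher. Of 12564 genes 48.7% were called lower and 1.19% higher. A share of 3 in 8 lower is no more than that background. Glutamatergic 2 cells had a median of 7585 genes against 4954, and the part of depth in the calls was not tested. The median difference was -0.33 over the members and -0.97 over all genes. Crym was held by 9 of 13 Glutamatergic 2 cells at a median of 423, a highest level of 1353 and a summed level of 588 CPM. In Glutamatergic 1, 11 of 33 cells held it, at a median of 0, a highest level of 684 and a summed level of 149 CPM. The groups overlapped, with 4 Glutamatergic 2 cells at 0 and 8 Glutamatergic 1 cells of the Htr3a line above 1 CPM.

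Sox5 ran against the tide of the comparison. Of 33 Glutamatergic 1 cells 25 held it, at a median of 60.5 and a summed 181 CPM, as did 7 of 13 Glutamatergic 2 cells at a median of 0.106 and a summed 63.9 CPM. Without Glutamatergic 2 cell 12, at 472 CPM, the latter was 18.6 CPM.

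Zfpm2 was held by 16 of 33 and 9 of 13 cells, at 56.2 and 118 CPM. Tle4 (-0.46), Bcl11b (-0.21), Ldb2 (0.05) and Foxp2 (0.60) differed by less than 1. The call of Fezf2 rested on cells at 0: 17 of 33 and 9 of 13 cells held it, but its summed level was higher in Glutamatergic 1 cells, at 170 against 131 CPM (log2 ratio 0.37), and within the Htr3a line its difference was -0.41. Within that line (23 and 12 cells) Crym (-4.14), Zfpm2 (-1.38) and Sox5 (2.58) kept their calls, where 48.4% of genes were called lower and 1.89% higher and 3 of 5 erythrocyte genes, which mark blood RNA, were higher.

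Of 22 other deep layer and subplate genes 7 were called higher in Glutamatergic 1 cells and 5 lower. Nfe2l3 (2.29) and the layer 6 receptor Ntsr1 (1.74) were among the higher, and Igfbp4 (-3.93) and Syt6 (-2.07) among the lower.

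The label Glutamatergic 1 covered cells of 2 driver lines, which differed in most members. Nex line cells (10) had 5 members called lower than Htr3a line cells (23), namely Fezf2, Bcl11b, Tle4, Zfpm2 and Crym, and 1 called higher, Ldb2. Of 12508 genes 19.1% were called lower and 14.3% higher, and the median difference was -3.11 over the members against -0.10 over all genes. The median number of genes per cell was 4311.5 in the Nex line and 5183 in the Htr3a line.

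Fezf2 was held by 1 of 10 Nex line cells (10%, interval 0.253% to 44.5%), at 56.7 CPM. In the Htr3a line 16 of 23 cells held it (69.6%, interval 47.1% to 86.8%), with a median of 103 and a highest level of 1235 CPM. The summed levels were 7.78 (7.17 to 8.43) and 227 CPM (225 to 229), and the difference was -4.43 (means 0.58, SD 1.85, and 5.01, SD 4.004).

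Nex line cells thus held little of the factor that heads the subcerebral programme, though 7 Htr3a line cells had none of it either. Bcl11b was held by 2 of 10 and 20 of 23 cells, at 29.02 and 160 CPM (difference -4.16). Without cell 24, at 460 CPM, the Nex line level was 0.207 CPM.

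Tle4 was held by 2 of 10 and 19 of 23 cells, and the difference was -3.79. The 2 Nex line cells had 441 and 730 CPM, high for this gene, so the summed levels, 106 and 202 CPM, differed less (log2 ratio -0.92). Zfpm2 was held by 1 of 10 cells, at 7.63 CPM, and by 15 of 23 cells, at a summed 76.1 CPM (difference -3.31).

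Crym was held by none of the 10 Nex line cells, which allows a share of up to 30%, and by 11 of 23 Htr3a line cells at a median of 0 and a highest level of 684 CPM (difference -2.92). Its summed level was 203 CPM in the Htr3a line, and the upper limit in the Nex line was 0.0477 CPM.

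Ldb2 and Sox5 stood apart from those 5 genes. Ldb2 was held by 8 of 10 Nex line cells (80.0%, interval 44.4% to 97.5%), with a median of 189 and a highest level of 990 CPM. A smaller share of Htr3a line cells held it, 10 of 23 (43.5%, interval 23.2% to 65.5%), with a median of 0 and a highest level of 256 CPM, and the difference was 3.13. Sox5 was held by 7 of 10 and 18 of 23 cells, at 167 and 186 CPM, a difference of -0.10. Foxp2 differed by 0.39, and its Nex line level of 53.3 CPM was 0.0138 CPM without cell 24.

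**Figure D3:**
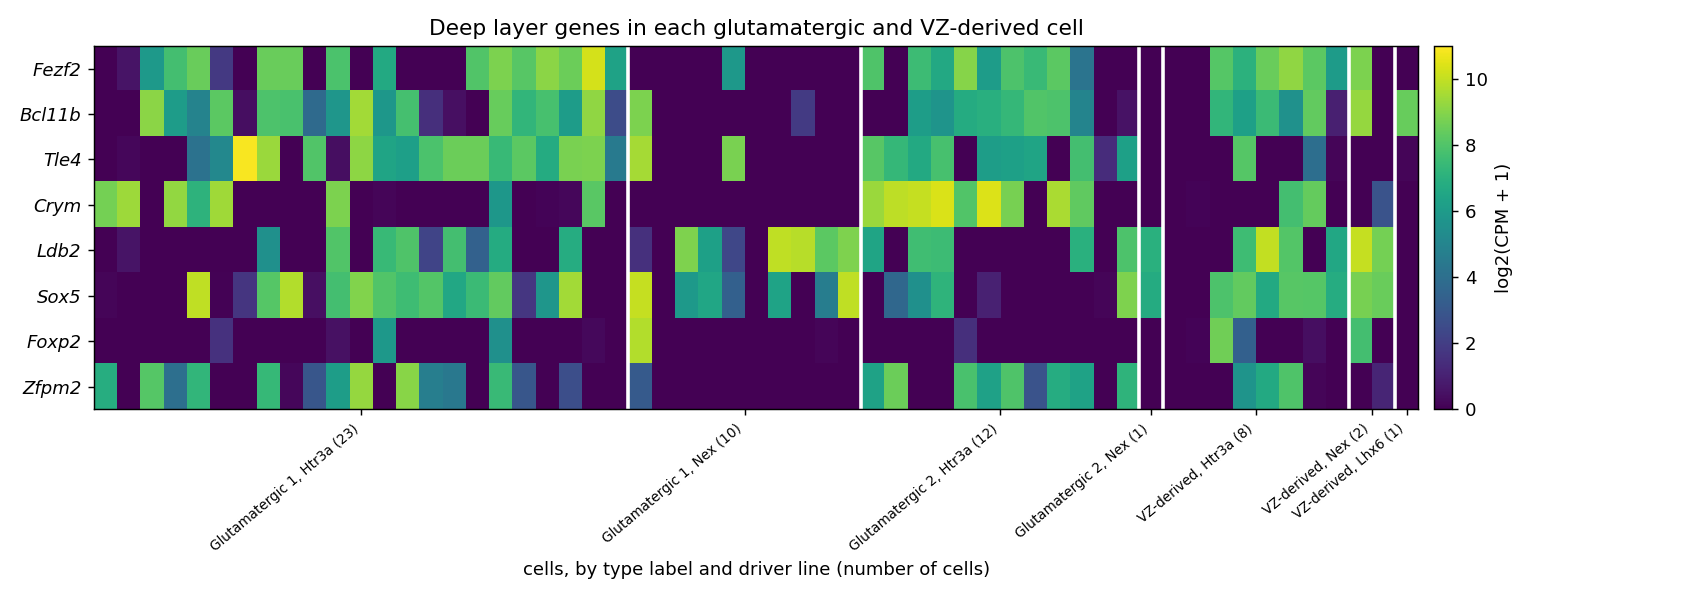
Level of the 8 genes, as log2(CPM + 1), in each glutamatergic and VZ-derived cell, with cells in columns grouped by type label and driver line and genes in rows. The 10 Nex line cells of Glutamatergic 1 are largely filled for Ldb2 and Sox5 and nearly empty for Fezf2, Bcl11b, Zfpm2 and Crym.

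The other lists of layer genes also differed between the lines. Of 24 other deep layer and subplate genes 14 were called lower in Nex line cells and 1 higher (median -1.28). Bcl11a, a zinc finger factor related to Bcl11b, was held by 6 of 10 and 23 of 23 cells (-4.96), Hs3st4 by 1 of 10 and 19 of 23 (-3.58), Tshz3 by 1 of 10 and 16 of 23 (-3.41), and the subplate factor Nr4a2 by 0 of 10 and 14 of 23 (-2.88). The gene called higher was Foxp1 (3.65).

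Of 17 callosal and upper layer genes 12 were called higher in Nex line cells and none lower (median 2.02). Ptn, a secreted growth factor, differed by 7.62, Limch1 by 4.74, Rorb, a nuclear receptor of layer 4 neurons, by 4.69, and the POU factor Pou3f3 by 3.46.

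**Figure D4:**
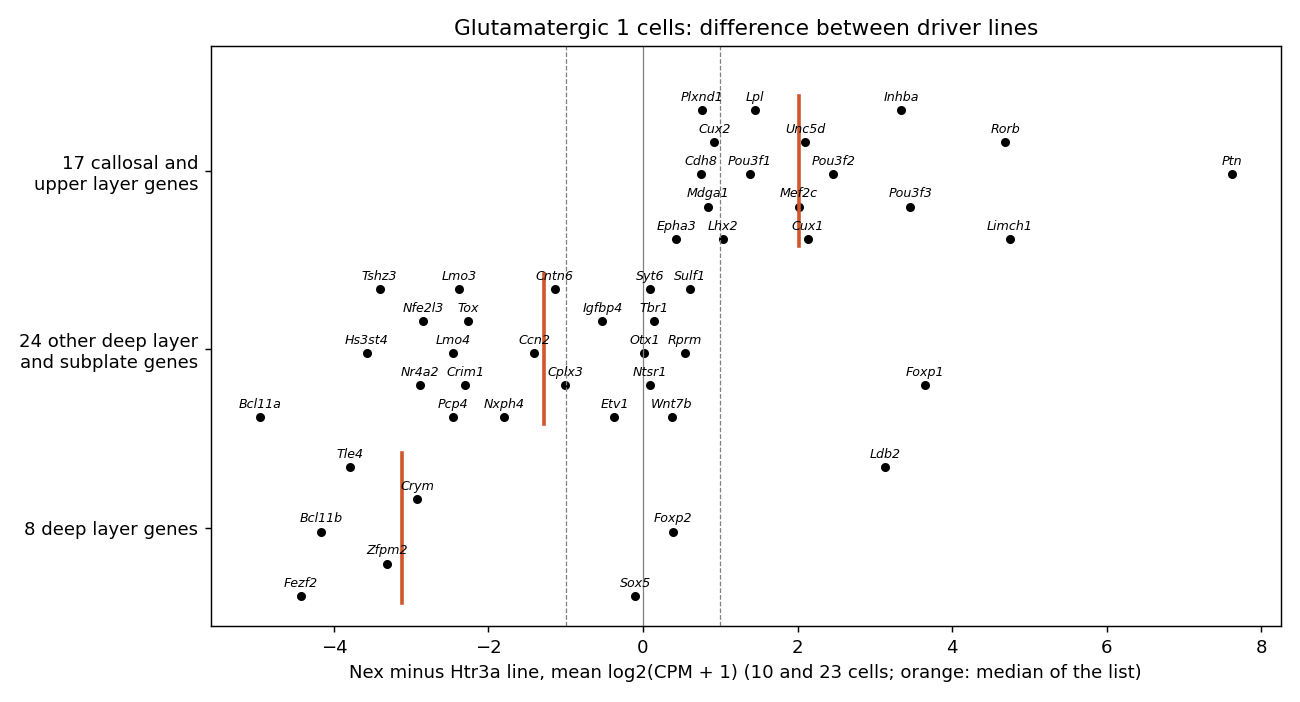
Difference between Nex and Htr3a line cells of Glutamatergic 1 in mean log2(CPM + 1) for the 8 deep layer genes, 24 other deep layer and subplate genes and 17 callosal and upper layer genes, 1 point per gene with the median of each list in orange. The medians are -3.11, -1.28 and 2.02.

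Several other values moved with the driver line. The 5 erythrocyte genes had 4 called lower in Nex line cells, with a summed level per cell of 0 at the median and 22.3 CPM at the highest, against 38.6 and 2029 CPM in the Htr3a line. Slc17a7 was lower (-3.65) and Slc17a6, the other cortical vesicular glutamate transporter, higher (3.99) in Nex line cells. With only the 8 Htr3a line cells that had no more erythrocyte counts than Nex line cells, 6 members were called lower, Sox5 (-1.33) being added, and Ldb2 was higher, where 3543 of 13622 genes were lower and 13.8% higher. In those cells 6 of 7 microglia markers tested (median -1.51) and 3 of 11 progenitor markers were also lower in the Nex line. The summed microglia level per cell was 0.0870 at the median and 1204 CPM at the highest in the Nex line, against 0.182 and 4755 CPM, and the part of such RNA in the result was not tested. Without Nex line cell 24 the members' counts were 1 higher and 5 lower, where 13.6% and 22.8% of genes were.

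Co-detection within glutamatergic cells was counted at a level of at least 1 CPM, with r for log2(CPM + 1) over the same 46 cells, which differ in depth. Among pairs of members, r was highest for Fezf2 and Bcl11b, next for Ldb2 and Sox5, and lowest for Crym and Sox5. These extremes are described here and are not typical of the set. The other pairs ran from -0.27 (Bcl11b and Ldb2) to 0.38 (Bcl11b and Zfpm2), with Fezf2 and Sox5 at -0.03. Fezf2 and Bcl11b were found together in 22 cells, Fezf2 without Bcl11b in 3, Bcl11b without Fezf2 in 6 and neither in 15 (r = 0.60). Bcl11b was thus present in 88.0% of cells with Fezf2 and 28.6% of cells without it. Within the 35 Htr3a line cells the numbers were 22, 2, 4 and 7 (r = 0.54), and within Glutamatergic 2 they were 8, 1, 0 and 4. Cells with Fezf2 had more genes at the median, 6453 against 4954, and the part of depth in the pairing was not tested.

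Ldb2 and Sox5, both frequent in Nex line cells, formed another frequent pair. They were found together in 20 cells, Ldb2 alone in 3, Sox5 alone in 8 and neither in 15 (r = 0.49). In the Htr3a line r was 0.53, and 8 of the 9 Nex line cells with Ldb2 had Sox5. The numbers of genes in cells with and without Ldb2 were close, at medians of 5681 and 5434.

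Foxp2 was detected at this level in 5 glutamatergic cells, and all 5 had Bcl11b. With or without Foxp2, Bcl11b was found in 26 of 35 Htr3a line and 2 of 11 Nex line glutamatergic cells. In the Htr3a line cells of Glutamatergic 1, the 9 cells with Ldb2 all had Sox5, which was found in 15 of all 23.

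Among glutamatergic cells Crym and Sox5 were more often apart than together. They shared 7 of 46 glutamatergic cells, with 10 holding Crym alone, 21 Sox5 alone and 8 neither (r = -0.34), and the 7 shared cells were all of the Htr3a line (r = -0.36 within it). Sox5 was present in 41.2% of cells with Crym and 72.4% of cells without it. Cells with Crym had 7519 genes at the median and cells without it 4954, and the part of depth was not tested. The 46 cells pool both glutamatergic labels, which differed in the levels of these genes in opposite directions. In the Htr3a line r was -0.35 within Glutamatergic 1 and -0.06 within Glutamatergic 2 cells. Elsewhere in that line it was positive, 0.53 in Undefined cells, where 7 of 17 had both genes, and 0.40 in VZ-derived cells, where 2 of 8 did.

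**Figure D5:**
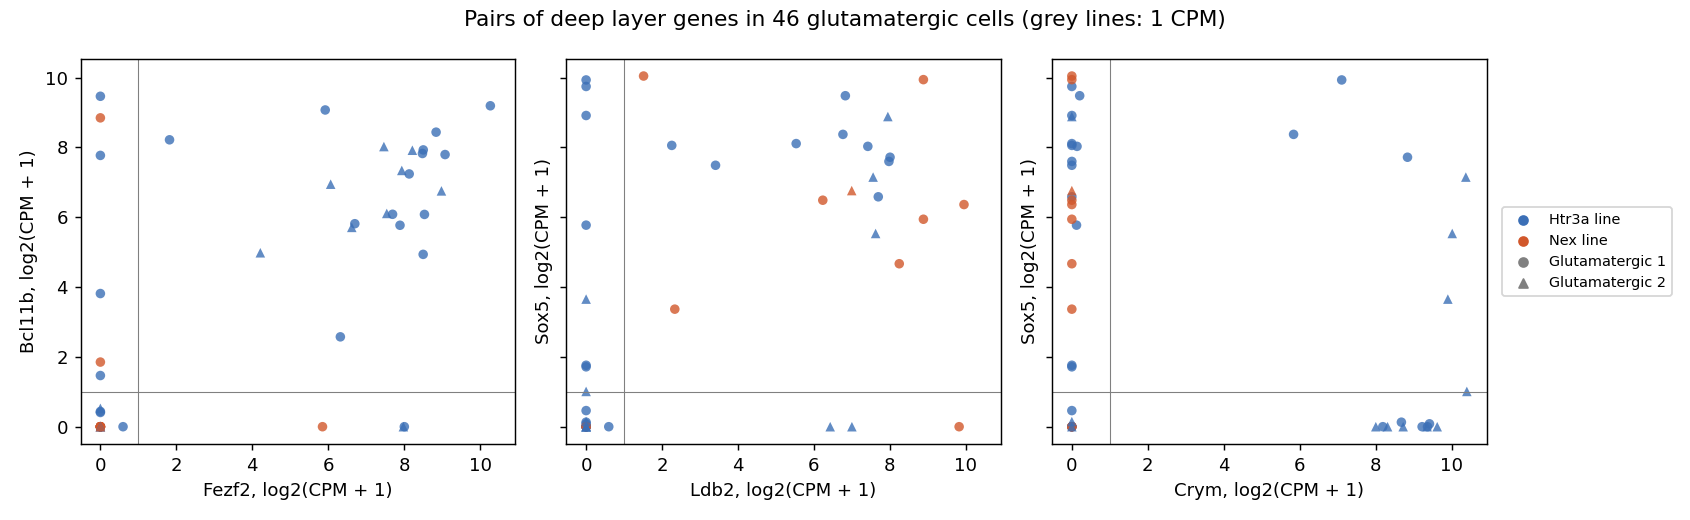
Bcl11b against Fezf2, Sox5 against Ldb2 and Sox5 against Crym (first gene vertical, second horizontal), all as log2(CPM + 1), in 46 glutamatergic cells marked by type label (shape) and driver line (colour), with grey lines at 1 CPM. The upper right area, at 1 CPM or more for both genes, holds 22 cells for Fezf2 and Bcl11b, 20 for Ldb2 and Sox5 and 7 for Crym and Sox5.

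Cajal Retzius cells, early-born neurons of the marginal zone that secrete reelin, held few of the members. In the comparison with glutamatergic cells, the same 46 cells that serve the other comparisons, 6 members were called lower and none higher, where 7.97% of 12722 genes were lower and 34.0% higher. Most markers fitted the label: all 12 cells held Reln at 2543 CPM or more, 11 held Trp73 and 12 Slc17a6 at 1 CPM or more, and none held Slc17a7. Markers of other classes were found too. Lhx6, Prox1 and Neurod6 were each at 1 CPM or more in 2 cells, at up to 595, 314 and 371 CPM. Ldb2 and Zfpm2 were at 0 in all 12 cells, which allows a share of up to 25%.

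Fezf2 was held by 1 of 12 Cajal Retzius cells, at 3.77 CPM (difference -3.86), and Sox5 by 1, at 334 CPM (-3.43). Crym was held by 2 cells, at less than 1 CPM (-3.24). Bcl11b was held by 7 of 12, but at a median of 0.673 and a summed 13.1 CPM (-2.33).

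Tle4 was the exception. It was held by 9 of 12 Cajal Retzius cells (75.0%, interval 42.8% to 94.5%), with a median of 67.9, a highest level of 204 and a summed level of 63.7 CPM, and its difference from glutamatergic cells was -0.25. Against the Htr3a line glutamatergic cells alone it was called lower (-1.17), and 7 members were then called lower, where 9.13% of genes were lower and 30.5% higher. Of 5 erythrocyte genes 4 were also lower in Cajal Retzius cells in that comparison (summed median 1.18 against 37.3 CPM). Tle4 was thus present in most cells of the 2 classes of excitatory neuron, the 7 other members being lower in Cajal Retzius cells or, for Foxp2 (-0.47), low in both.

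VZ-derived cells held markers of neurons more often than markers of ventricular zone progenitors. At 1 CPM or more, Neurod2 was found in 11 of 11 cells, Neurod6 in 10 and Tbr1 in 9, while Sox2 and Pax6 were each found in 1, Vim in 3, and Hes5 and Eomes in none. Reln was found in 8, at a median of 294 and a highest level of 6205 CPM. Of 8 progenitor markers tested against glutamatergic cells, 1 was called higher, Ptprz1. The cells are called here by their label only.

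The deep layer set was common in them. They held a median of 5 members, and 4 members were called higher than in glutamatergic cells, Sox5 (1.62), Foxp2 (1.29), Ldb2 (1.24) and Fezf2 (1.04), with 3 lower, Tle4 (-3.48), Crym (-1.57) and Zfpm2 (-1.22). Of 12256 genes 11.6% were called higher and 14.7% lower. Fezf2 was held by 7 of 11 cells (63.6%, interval 30.8% to 89.1%), at a median of 133 and a highest level of 584 CPM. Sox5 was held by 8 cells at a median of 243 and a highest level of 432 CPM. Ldb2 was held by 6 cells, at a median of 95.6, a highest level of 1047 and a summed level of 294 CPM, or 184 CPM without cell 10. Foxp2 was held by 5 of 11 cells at a summed 34.8 CPM, with cell 4 at 386 and cell 10 at 210 CPM.

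Tle4, in contrast, was nearly missing. Only 4 of 11 cells held it, and 92.5% of its counts came from cell 5, at 273 CPM, without which the summed level was 1.25 CPM. Crym was held by 4 cells at a summed 49.5 CPM and Zfpm2 by 5 cells at 43.2 CPM. Within the Htr3a line (8 and 35 cells) Sox5 (1.86), Ldb2 (1.37) and Foxp2 (1.13) were called higher and Tle4 (-4.00), Crym (-2.31) and Zfpm2 (-1.54) lower, where 13.9% of genes were called higher and 16.2% lower. Of the Foxp2 counts in these VZ-derived cells 97.1% came from cell 4. Without it the summed level was 0.752 CPM, against 2.73 CPM in glutamatergic cells, and the Foxp2 call without cell 4 was not tested. In that comparison 4 of 5 erythrocyte genes were lower in VZ-derived cells, with a summed median of 1.32 against 37.3 CPM, and their part in the result was not tested. By the ratio of summed counts only 2 members were higher, as the log2 ratio was 0.27 for Sox5 and 0.34 for Fezf2.

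In VZ-derived cells Fezf2 and Bcl11b were found together in 6 cells and Ldb2 and Sox5 in 6, with no cell holding Ldb2 alone. Of 22 other deep layer and subplate genes 4 were called higher and 3 lower, and of 17 callosal and upper layer genes 6 were higher and 1 lower. Within the Htr3a line the numbers were 4 higher and 6 lower of 24, and 10 higher and none lower of 16.

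Undefined cells, which bear no type, held many of the members. Their median was 5 of 8, 12 of 22 held 5 or more, and 3 held none. Fezf2 was held by 13 of 22 at a median of 23.03 and a highest level of 584 CPM, and Sox5 by 15 at a summed 282 CPM. Crym was held by 14 at a median of 0.862 and a highest level of 2328 CPM. Fezf2 and Bcl11b were found together in 11 of these cells, with 1 and 2 holding only the first or the second. Neurod2 was held by 18 of the 22 and Gad1 by 13.

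Genes whose pattern was most like that of a member were sought among 11548 genes with a count in at least 20 passed cells, by r of log2(CPM + 1) over all passed cells, which differ in type and depth. For Fezf2 these were Sparcl1 (r = 0.61), Hs3st4 (0.59) and Tox (0.57). Over the 46 glutamatergic cells alone the values were 0.45, 0.50 and 0.59.

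For Crym they were Tspan18 (0.60), Slit3 (0.59) and St18 (0.58), and over the glutamatergic cells the values were higher, 0.74, 0.69 and 0.78. For Bcl11b the nearest were Tox (0.43), Pitpnc1 (0.43) and Xpr1 (0.40), besides Fezf2 (0.45). Over the glutamatergic cells the values were 0.45, 0.50, 0.48 and 0.60. For Tle4 they were B3gat1 (0.48), Rasgef1a (0.44) and Kcnt2 (0.42), and over the glutamatergic cells 0.56, 0.47 and 0.34. For Zfpm2 they were Sparcl1 (0.49), Hs3st4 (0.49) and Slc17a7 (0.44), and over the glutamatergic cells the values fell to 0.34, 0.43 and 0.17.

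Ldb2 was nearest to Sox5 among all genes (0.48), then to Csmd3 (0.45), Hs3st2 (0.43) and Nefl (0.42). Over the glutamatergic cells the values were 0.49, 0.39, 0.32 and 0.24. Sox5 was nearest to Sybu (0.48), Nfe2l3 (0.48) and Gipr (0.46) beside Ldb2, and over the glutamatergic cells these were 0.27, 0.48 and 0.41. Foxp2 was nearest to Kif26a (0.53), Coch (0.49) and Ifi27 (0.46), values that rest on the few cells with Foxp2. Over the glutamatergic cells they were 0.79, 0.37 and 0.17.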

How the data were processed

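Reads were handled with Trimmomatic, STAR and featureCounts on build GRCm38, per the submitters' processing notes, and the versions are not given in the sources used here. The deposited counts are unscaled read numbers, given by Ensembl identifier and by gene symbol. The authors also deposited normalized signal values for passed cells only, in which each member's values lay within 0.1% of its counts divided by 1 factor per cell. The symbol table held 4 of the 8 members and served as an alternative. Of 22880 identifiers 22570 were given a symbol from GENCODE M21. CPM, shares, mean differences with a pseudocount of 1 CPM, intervals and co-detection were computed with Python 3.11.15, numpy 2.4.6, pandas 2.3.3 and scipy 1.17.1, and figures with matplotlib 3.10.9. The computation of differences was tested on simulated data. Cells were grouped by the labels for cell type, driver line and quality control, and the 14 failed cells entered no comparison. No doublet caller was run.

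The members and the 15 gene lists were chosen with earlier results of these data known; 1 gene of 2 lists is not reported here. Genes were named by a rule: the 8 members, the 3 genes most like each, and up to 4 genes per list with the largest difference. Gad1, Slc17a7, Neurod6 and other label markers, Tshz3 and Foxp1 were chosen after their values were seen. The alternatives were other pseudocounts (0.1 and 10 CPM), the ratio of summed counts, the normalized and symbol tables, counts thinned to 1.5e+06 per cell, cells with at least 5000 genes, the Htr3a line alone, leaving out the highest cell, and 3 added after seeing the data: leaving out cells of GABAergic classes with over 10000 genes, leaving out Nex line cell 24, and Htr3a line cells low in erythrocyte counts.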

Additional observations from a re-analysis of the deposited data

Results flagged for a closer look

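Dixon's 95% criterion was applied to the level of each member in each group of 4 to 10 cells, and 19 of 39 sets met it. In 12 of the 19 every other cell was at 0, so that any count at all meets the criterion, and the rate of about 1 in 20 expected by chance, which holds for normally spread values, does not apply to levels with so many zeros. All values are CPM of the highest cell.

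Among the 10 Nex line cells of Glutamatergic 1, cell 24 stood apart for Bcl11b (460), Foxp2 (849) and Zfpm2 (7.63), and cell 28 for Fezf2 (56.7). Among the 4 cells labelled GABAergic, cell 2 stood apart for Tle4 (101) and Foxp2 (114) and cell 3 for Sox5 (118), and cell 1 met the criterion for Ldb2 on 1 count (0.0650). Cell 2 also had 11566 genes, more than the other 3. In the Lhx6 line, MGE-derived 1 cell 5 stood apart for Fezf2 (11.01) and cell 7 for Sox5 (31.9) and Zfpm2 (90.2). MGE-derived 2 cell 7 stood apart for Fezf2 (131), and cell 3 for Crym (248) and Ldb2 (101). VZ-derived cell 4 of the Htr3a line stood apart for Foxp2 (386). Among the 4 Undefined cells of the Nex line, cell 20 stood apart for Tle4 (5.65), Ldb2 (281) and Foxp2 (98.4), and cell 22 for Crym (120.5).

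The 14 cells that failed quality control, which no comparison used, also held members. Their summed counts were 3529 for Bcl11b (5 cells), 2886 for Tle4 (3 cells), 831 for Crym (1 cell), 10006 for Ldb2 (2 cells), 982 for Sox5 (3 cells) and 11406 for Foxp2 (4 cells). Nearly all of the Foxp2 counts came from 1 Htr3a line cell labelled GABAergic, at 1650 CPM, above the highest passed cell at 849 CPM. Nearly all of the Ldb2 counts came from 1 Lhx6 line cell labelled MGE-derived 1, at 1437 CPM, above the highest passed cell at 1047 CPM. The failed Glutamatergic 1 cell held 5 members.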

How the results depend on the processing

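No paired analysis was possible because no label pairs cells across groups and no test was made. Among 432 differences of single members under the alternatives, 1 that had been called reversed, that of Fezf2 between Glutamatergic 1 and 2, which was 0.37 by the ratio of summed counts. Differences that had not been called were not counted as reversed, though some changed sign. For Bcl11b in VZ-derived against glutamatergic cells the difference was 0.84, and -0.51 within the Htr3a line. Of 89 alternative counts and medians 10 moved, and the cause was not tested. By the ratio of summed counts, 2 members were higher in the Nex than in the Htr3a line, 2 in VZ-derived than in glutamatergic cells (1 with a pseudocount of 10 CPM) and 6 in MGE-derived than in CGE-derived cells. The last count was 5 with a pseudocount of 0.1 CPM, 1 with 10 CPM, 5 with the deposited normalized values, 1 without the highest cell, 4 in the Htr3a line and 1 without cells of over 10000 genes. Of 31 called differences, 31 kept their call with a pseudocount of 0.1 CPM, with normalized values and with thinned counts, 30 with cells of at least 5000 genes, 29 without the highest cell, 26 by summed counts and 25 with 10 CPM. The Htr3a line kept 23 of 25 and counts by gene symbol kept 14 of 14, with no count of members run on them. The number of cells, 4 to 33 per label, limits the precision of shares, and the thinned counts were 1.5e+06 in every passed cell.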
